A study of Mus musculus with 30 samples.

Results

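The marker genes of dentate granule cells Prox1, Dsp, C1ql2, Calb1, Trpc6, Stxbp6, Rfx3 and Glis3 were taken by symbol from the hippocampal count table, 8 of its 17477 genes, and all 8 had a row and passed the filter on low counts in every comparison. RNA came from the whole frozen hippocampus of adult C57 BL/6J mice kept alone from weaning (social isolation, SI) or several to a cage (group housed, GH), with no other treatment. There were 8 SI females, 7 GH females, 7 SI males and 8 GH males, and each mouse gave 1 poly-A selected library. SI was set against GH in females (animals 41 to 79) and in males (animals 1 to 39), to ask whether isolation changed these genes in either sex. The labels do not say which GH mice shared a cage, so the p-values measure the spread between mice, some of which may share a cage.

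Granule cells are the principal neurons of the dentate gyrus, the gate through which input from the entorhinal cortex enters the hippocampus, and their axons, the mossy fibres, contact mossy cells and CA3 pyramidal neurons. They are among the few neurons still born in the adult rodent brain, and adult neurogenesis is known to respond to stress and housing. Prox1 encodes the homeodomain transcription factor that sets and keeps granule cell identity. Rfx3 and Glis3 encode 2 further transcription factors, of the RFX and GLIS families. C1ql2 encodes a secreted C1q-like protein of mossy fibre synapses, Stxbp6 encodes amisyn, which binds SNARE proteins, Trpc6 encodes a receptor-operated cation channel, Calb1 encodes the calcium buffer calbindin, and Dsp encodes desmoplakin, which ties desmosomes to intermediate filaments. Calb1 is also made in CA1 neurons and interneurons, so it marks granule cells less closely than Prox1 does.

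From these genes 3 were taken for a view of the promoter. Prox1 defines the cell type. Rfx3 with Glis3 had a Pearson correlation between mice (r = 0.87) that only Prox1 with Glis3 equalled among the pairs of markers. C1ql2 had the largest Log2FC in females and little relation to Rfx3 between mice. The promoters of these 3 genes are shown. They are RefSeq windows of 300 bases around the annotated start on build GRCm38.p6, at chr1:190170778-190171077 (- strand) for Prox1, chr19:28011117-28011416 (- strand) for Rfx3 and chr1:120340332-120340631 (+ strand) for C1ql2. Capitals mark a match to CAGATG, an E-box read by NEUROD factors, or to GTTGCC, part of the RFX motif, on either strand.
Prox1: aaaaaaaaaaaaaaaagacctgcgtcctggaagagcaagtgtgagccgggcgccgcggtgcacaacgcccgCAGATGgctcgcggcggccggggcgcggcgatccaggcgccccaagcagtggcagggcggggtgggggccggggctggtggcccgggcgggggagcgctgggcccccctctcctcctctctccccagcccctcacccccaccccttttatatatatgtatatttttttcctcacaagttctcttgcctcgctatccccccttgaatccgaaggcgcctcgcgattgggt
Rfx3: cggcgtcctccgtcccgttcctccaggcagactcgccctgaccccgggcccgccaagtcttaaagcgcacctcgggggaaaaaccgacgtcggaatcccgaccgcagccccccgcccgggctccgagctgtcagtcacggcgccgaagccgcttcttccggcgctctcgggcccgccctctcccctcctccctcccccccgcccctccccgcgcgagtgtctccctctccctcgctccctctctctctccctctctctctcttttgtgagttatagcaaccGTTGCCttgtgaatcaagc
C1ql2: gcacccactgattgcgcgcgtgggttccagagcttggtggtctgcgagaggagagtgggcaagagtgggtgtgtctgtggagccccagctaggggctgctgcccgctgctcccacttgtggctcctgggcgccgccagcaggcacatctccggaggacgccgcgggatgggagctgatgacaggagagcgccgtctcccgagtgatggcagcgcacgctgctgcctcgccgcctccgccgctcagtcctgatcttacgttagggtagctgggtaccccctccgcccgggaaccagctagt

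Of the 8 markers, 7 had promoter entries, with 8 windows in all, and Calb1 was the other. CAGATG was found 1 time in the Prox1 window shown and in no other member window, against 17.2% of all 32851 mouse windows. GTTGCC was found 1 time in the Rfx3 window, against 12.5% of all windows, and the cAMP response element TGACGTCA was in none of the 8, against 1.79%. The 3 motifs do not overlap one another. The member windows held 57.3% to 76.3% G and C and 14 to 32 CpG dinucleotides, while the median over all windows was 52.7% and 7. Binding was not measured in these mice, and a missing match says only that these letters are not in the window.

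In the genome build NCBIM37, Prox1 (ENSMUSG00000010175) lies on chromosome 1 from 191945660 to 191994559 and C1ql2 (ENSMUSG00000036907) on the same chromosome from 122237159 to 122239748. Dsp (ENSMUSG00000054889) lies on chromosome 13 from 38243197 to 38290446, Calb1 (ENSMUSG00000028222) on chromosome 4 from 15808411 to 15835211, Trpc6 (ENSMUSG00000031997) on chromosome 9 from 8544432 to 8680565 and Stxbp6 (ENSMUSG00000046314) on chromosome 12 from 45953475 to 46175480. Rfx3 (ENSMUSG00000040929) and Glis3 (ENSMUSG00000052942) are both on chromosome 19, from 27836211 to 28085656 and from 28333341 to 28754567. The annotation places other transcripts over Prox1, Dsp, Stxbp6, Rfx3 and Glis3, including a second gene identifier named Glis3, and none of these had a row of its own in the table. The longest coding transcripts ran from 1997 bases for C1ql2 to 9538 bases for Dsp.

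The libraries held 18809307 to 100844898 counts, and SI males had fewer than GH males (exact permutation test, p = 0.0392). SI males 25, 33 and 39 stood apart from the other mice. The main axis of variation among males (first principal component, 54.2% of the variance) placed them at 103, 88.9 and 63.4 and the other 12 males between -37.6 and 0.748. Their length slopes were -0.476, -0.456 and -0.365, where the length slope is the change in a library's log2 level, relative to the mean of all mice, for each doubling of transcript length, and the other 27 mice lay between -0.13 and 0.18. Results that rest on these 3 mice are given with and without them.

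Levels were compared between genes as CPM, counts scaled to a common library size, per kilobase of the longest coding transcript. C1ql2 was highest, at 62.8 ± 11 (SD, n = 30 mice), above Calb1 at 21.7 ± 1.95. Stxbp6 was at 17.4 ± 2.61, Prox1 at 16.3 ± 4.2, Trpc6 at 5.79 ± 0.722, Rfx3 at 4.86 ± 0.984, Dsp at 3.05 ± 1.1 and Glis3, the lowest, at 1.17 ± 0.352. The order C1ql2, Calb1, Stxbp6, Prox1, Trpc6, Rfx3, Dsp, Glis3 held between neighbours in 27 to 30 of 30 mice, except that Stxbp6 was above Prox1 in 22 mice. The means of Calb1 and Stxbp6, of Stxbp6 and Prox1, of Trpc6 and Rfx3 and of Rfx3 and Dsp lay closer than the sum of their SDs. Glis3 was still counted in every mouse, with 60 reads or more.

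In SI females the markers leaned upward and none was a DEG (adjusted p under 0.05 in edgeR). C1ql2, Trpc6 and Prox1 showed the smallest p-values, with Log2FC of 0.23, 0.18 and 0.15, and all 8 markers had a Log2FC above 0. The background in females was 3.89% of 16026 genes called, and 0 of the 8 markers were, as with DESeq2, which called 1263 of 13229 genes. At an unadjusted p under 0.05, 3 of 8 markers were higher in SI, where 9.29% of all genes were. The median Log2FC of the markers was 0.12, against 0.01 for all genes, of which 52.8% were above 0. This lean depended on the fit. With limma and quality weights, which had no surrogate variables, the median was 0.01, with 4 of 8 markers above 0 and 0 of 8 at an unadjusted p under 0.05, and with DESeq2 and apeglm, which shrinks a Log2FC towards 0, it was 0.03. In edgeR without surrogate variables it was 0.10, with 7 of 8 above 0 and 1 of 8 at an unadjusted p under 0.05. In a bulk sample, fewer granule cells and less RNA per granule cell cannot be told apart, and nor can more of either.

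C1ql2, the mossy fibre synapse protein, ran from 90.8 through a median of 107 to 124 CPM in GH females and from 90.0 through 133 to 147 CPM in SI females. Of the 8 SI females 5 lay above every GH female, and SI female 73, the lowest of all 15, lay below every GH female, so the groups overlapped. The Log2FC was 0.23 (SE 0.0941, 95% interval 0.03 to 0.43) and the edgeR adjusted p was 0.177. The exact permutation test over all splits of the 15 females, which has no covariates, gave p = 0.0707.

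Trpc6, the cation channel, ran from 12.3 through a median of 14.7 to 16.7 CPM in GH females and from 14.6 through 17.0 to 18.3 CPM in SI females. Above the GH range lay 5 of 8 SI females, and none lay below it. The Log2FC was 0.18 (SE 0.0736, 95% interval 0.03 to 0.34, edgeR adjusted p = 0.174), and the exact permutation test gave p = 0.0556. These were small shifts of a gene with little spread, the SD being 1.60 CPM in GH and 1.57 CPM in SI females.

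Prox1 ran from 40.7 through a median of 65.5 to 92.6 CPM in GH females and from 50.2 through 73.3 to 97.4 CPM in SI females. GH female 71 was exceeded by 1 SI female, and 1 GH female, GH female 78, was below the lowest SI female. The Log2FC was 0.15 (SE 0.0618, edgeR adjusted p = 0.173). Its unadjusted p under 0.05 rested on the surrogate variables, the covariates that svaseq estimated from all genes. Without them the Log2FC was also 0.15 but the SE was 0.15 and the unadjusted p was 0.346, and the exact permutation test gave p = 0.402.

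The other 5 markers differed less clearly between SI and GH females. Dsp ran from 16.5 through 29.1 to 38.6 CPM in GH females and from 21.6 through 29.0 to 57.7 CPM in SI females. Its medians were nearly equal, and its Log2FC of 0.19 (SE 0.133, edgeR adjusted p = 0.451) became 0.04 without SI female 45, the highest of the 15. Stxbp6 ran from 57.4 to 89.8 CPM in GH and from 66.4 to 80.4 CPM in SI females, and its Log2FC was 0.08 (SE 0.0612, edgeR adjusted p = 0.511). The SI females lay inside the GH range for Stxbp6, with 7 of 8 above the GH median. Calb1 ran from 72.8 to 92.7 CPM in GH and from 77.0 to 103 CPM in SI females (Log2FC = 0.05, 95% interval -0.07 to 0.18). The transcription factors Rfx3 and Glis3 had a Log2FC of 0.06 (95% interval -0.07 to 0.19) and 0.01 (95% interval -0.14 to 0.16).

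**Figure D1:**
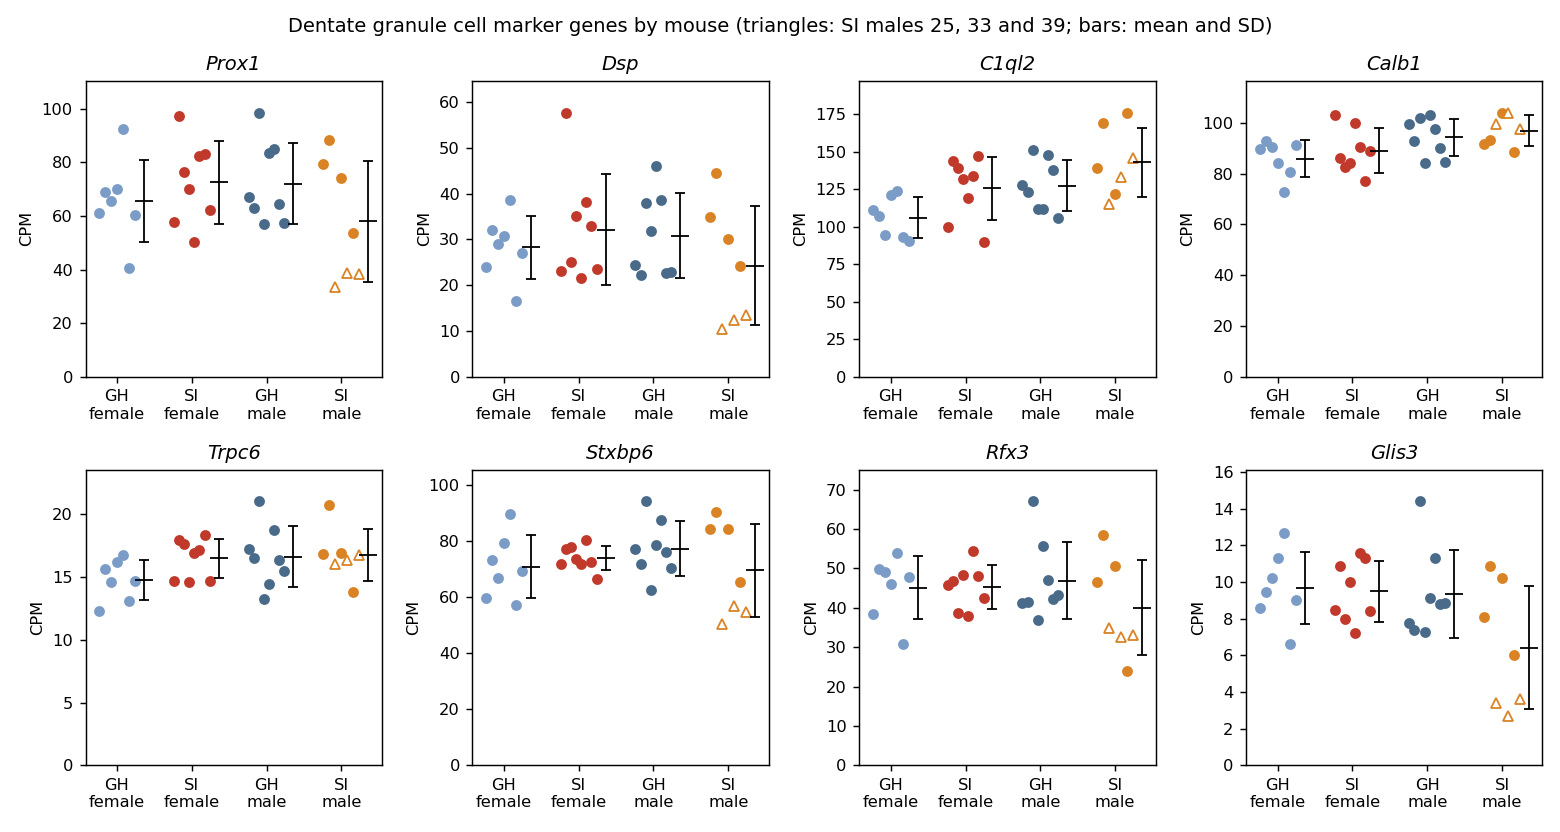
CPM of the 8 markers (vertical axes) in each mouse of the 4 groups (horizontal axes), with the group mean and SD as bars and SI males 25, 33 and 39 as open triangles. The triangles lie below all GH males for Prox1, Dsp, Stxbp6, Rfx3 and Glis3 and not for C1ql2, Calb1 and Trpc6, where the highest triangle of Calb1, at 104 CPM, is just above the highest GH male, at 103 CPM.

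Markers of other cell types moved in the same females. In SI females 2 of 5 astrocyte markers fell, Aldh1l1 (Log2FC = -0.27, edgeR adjusted p = 0.0215) and the glutamate transporter gene Slc1a3 (Log2FC = -0.24, edgeR adjusted p = 0.014), where 2.93% of all genes fell. All 5 had a Log2FC below 0. The summed level of the 5 was 1720 to 2220 CPM in GH and 1360 to 1970 CPM in SI females. The summed level of 5 general neuron markers was 3890 to 4500 CPM in GH and 4020 to 4920 CPM in SI females, with 0 of 5 called and 5 of 5 above 0. None of these markers was at 0 in any mouse. Of 5 CA3 markers 1 rose, Cdh24 (Log2FC = 0.39, edgeR adjusted p = 0.0343). Of 5 endothelial markers 1 rose, Flt1, a VEGF receptor gene (Log2FC = 0.14, edgeR adjusted p = 0.0496). By the same test 0.961% of all genes rose. Aldh1l1, Slc1a3, Cdh24 and Flt1 were not called without surrogate variables or with the position digit of each library, read from its label, as a factor, where the adjusted p was 0.0974 to 0.343. Flt1 was called in 4 of 11 alternatives and the others in 9, and all 4 lost the call without SI female 45, 63 or 68. Other lists held no called gene. All 9 choroid plexus markers (median Log2FC 0.26) and all 5 CA2 markers (median 0.10) were above 0, and all 5 ependymal (median -0.23), all 5 oligodendrocyte (median -0.08) and all 5 microglial markers (median -0.08) were below 0, with 1 or 2 of each list at an unadjusted p under 0.05. Their part in the marker differences was not tested.

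In males no marker was a DEG, and the lowest levels of 5 markers, Prox1, Dsp, Stxbp6, Rfx3 and Glis3, were found in SI males. In the fit of all 15 males 0 of 8 markers and 0 of 15833 genes were called by edgeR, a background of 0%. At an unadjusted p under 0.05 and higher in SI there was 1 of 8 markers, C1ql2, against 5.63% of all genes. DESeq2 called none of the 8 either, and 44 of 12456 genes in all. The median Log2FC of the markers was -0.01, with Glis3 lowest at -0.23 (SE 0.154, edgeR adjusted p = 0.522), then Rfx3 at -0.18 (SE 0.142) and Prox1 at -0.08 (SE 0.098), while Dsp, Calb1, Trpc6 and Stxbp6 lay between -0.01 and 0.00.

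Glis3 ran from 7.29 through a median of 8.84 to 14.4 CPM in GH males. In SI males 25, 33 and 39 it was at 3.40, 2.71 and 3.63 CPM, and the other 4 SI males ran from 6.04 to 10.9 CPM. All 3, and SI male 38, were below every GH male. Over all 15 males the mean log2 CPM was 0.69 lower in SI (exact permutation test, p = 0.0503), and without the 3 mice it was 0.09 lower (exact permutation test, p = 0.683, 495 splits).

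Dsp gave the same picture, with 22.2 to 46.1 CPM in GH males, 10.4, 12.5 and 13.4 CPM in SI males 25, 33 and 39, and 24.2 to 44.6 CPM in the other 4 SI males. Prox1 was at 57.0 to 98.5 CPM in GH males, at 33.5, 38.6 and 38.2 CPM in the 3 mice, and at 53.5 to 88.2 CPM in the other 4. Stxbp6 was at 62.6 to 94.2 CPM in GH males, at 50.6, 56.8 and 54.8 CPM in the 3 mice, and at 65.4 to 90.6 CPM in the other 4. For each of these genes the 3 mice were below the other 12 males without overlap. Without them the differences in mean log2 CPM between SI and GH males turned from -0.38 to 0.04 for Prox1, from -0.48 to 0.13 for Dsp and from -0.18 to 0.07 for Stxbp6.

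Rfx3 ran from 36.9 to 67.0 CPM in GH males and was at 34.9, 32.7 and 33 CPM in the 3 mice, but the lowest male was SI male 38, at 24 CPM. Calb1 and Trpc6 did not set the 3 mice apart. Calb1 was at 99.4, 104 and 97.5 CPM in them and at 84.2 to 103 CPM in GH males, and Trpc6 at 16, 16.3 and 16.7 CPM against 13.2 to 21.0 CPM. Without the 3 mice the Log2FC of all 8 markers in males lay between -0.02 and 0.09.

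C1ql2 was the marker with a positive Log2FC of similar size in both sexes. It ran from 106 through a median of 125 to 151 CPM in GH males and from 115 through 139 to 176 CPM in SI males, and only SI males 8 and 38 were above the highest GH male. The Log2FC was 0.24 (SE 0.101, edgeR adjusted p = 0.35). Without the 3 mice the fit, which then held 4 surrogate variables over 12 mice, gave -0.00 (SE 0.0765), while the plain difference of mean log2 CPM was 0.25 (exact permutation test, p = 0.0808). Without SI male 27, both C1ql2 (Log2FC = 0.30, edgeR adjusted p = 0.0457) and Glis3 (Log2FC = -0.50, edgeR adjusted p = 0.0251) passed the threshold, as did 2413 genes in all.

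**Figure D2:**
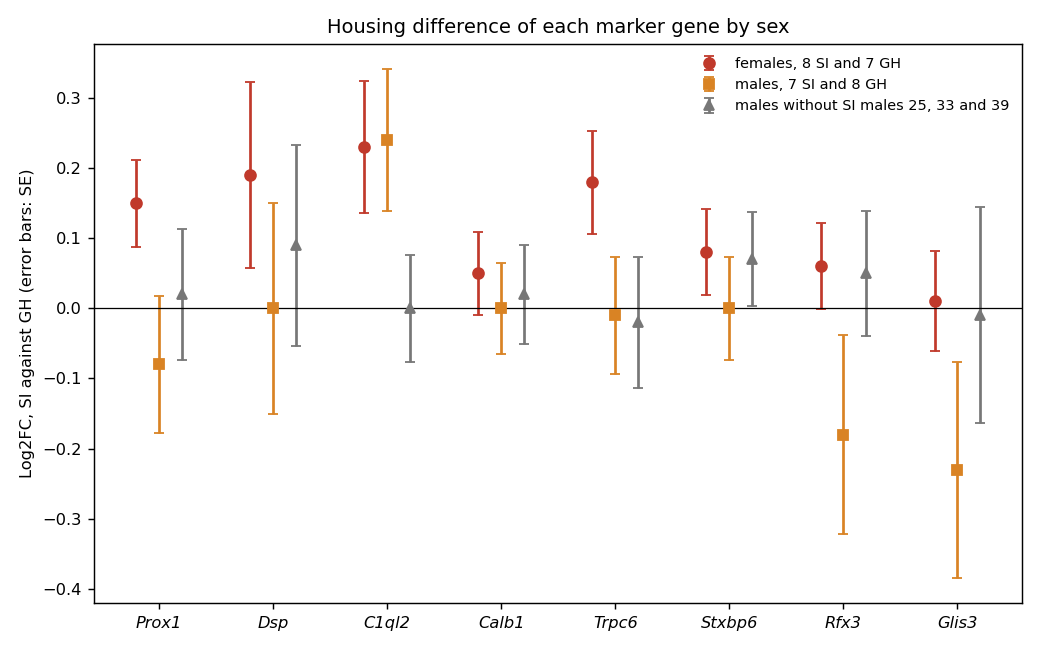
Log2FC of SI against GH (vertical axis) for each marker (horizontal axis) in females, in all males and in males without SI males 25, 33 and 39, with the SE as error bars. In females all 8 points lie above 0, and in males C1ql2 at 0.24 stands against Glis3 at -0.23 until the 3 mice are left out.

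The markers that were low in the 3 mice also followed the length slope in the other mice. The slope is itself computed from the levels of all genes of known length. How many of all genes follow it as closely was not counted, so the relation is not shown to be particular to the markers. Over 27 mice, after subtraction of group means, the slope correlated with Prox1 at r = 0.87 (permutation within groups, p = 1e-05, the smallest that 100000 resamples can give, adjusted over 8 markers 8e-05, rho = 0.85) and at 0.82 without the 2 mice of most extreme slope. The correlation was 0.77 for Dsp, 0.73 for Glis3, 0.71 for Rfx3, 0.67 for Stxbp6 and 0.54 for Trpc6, each with an adjusted permutation p of 0.00964 or less, and rho ran from 0.53 to 0.79 for these. For C1ql2 it was 0.30 (rho = 0.39, adjusted permutation p = 0.189 for r and 0.0756 for rho) and for Calb1 -0.01 (rho = 0.05, adjusted permutation p = 0.976 and 0.802). The longest annotated coding transcripts of Calb1 and Stxbp6 are 4222 and 4209 bases. The part of transcript length in these correlations was not tested.

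The 3 mice differed in other cell type markers too. Their summed microglial markers were at 376 to 438 CPM, against at most 334 CPM in the other mice, and their oligodendrocyte markers at 7680 to 10000 CPM, against 4720 to 7490 CPM in the other 4 SI males. Endothelial markers were at 256 to 310 CPM against 170 to 215 CPM, and the 5 neuron markers at 3960 to 4160 CPM against 4300 to 5490 CPM. Summed interneuron markers were higher, at 861 to 921 CPM against 697 to 846 CPM. CA3 markers were at 264 to 306 CPM against 235 to 269 CPM, and CA1 markers were lower, at 549 to 593 CPM against 603 to 828 CPM. The neuron markers did not go 1 way. Slc17a7, the vesicular glutamate transporter of principal neurons, was at 828 to 1040 CPM against 1330 to 1920 CPM in the other 4 SI males, and Syt1 at 597 to 641 CPM against 734 to 1220 CPM. Rbfox3, which encodes NeuN, was higher in mean, at 678 ± 126 CPM (SD, n = 3) against 429 ± 99.4 CPM (SD, n = 4), and Tubb3 was at 345 to 357 CPM against 251 to 405 CPM. Other genes known from granule cells went both ways too. In mean CPM C1ql3, Tdo2, Plk5, Akap7 and Maml2 were higher in the 3 mice than in the other 4 SI males. Lct, Pdzd2, Sema5a, Dock10, Fam163b, Trhr and Tiam1 were lower. C1ql3 was at 206 to 411 CPM against 136 to 158 CPM, and Tiam1 at 33.4 to 43.4 CPM against 96.2 to 133 CPM. Of 5 thalamic markers 4 had an unadjusted p under 0.05 and were higher in SI males (median Log2FC 0.50), against 5.63% of all genes. Without the 3 mice it was again 4 of 5 (median 0.40), against 473 of 16241 genes. None of the 5 was called. Their summed level in the other 4 SI males was 49.8 to 146 CPM, with a median of 78.1. In GH males it was 47.4 to 69.5 CPM, with a median of 53.2. In those 4 SI males Tcf7l2 had a median of 9.94 and a maximum of 38.3 CPM, and Plekhg1 of 19.6 and 20.7 CPM. How far 1 mouse carried the difference was not tested. The part of these markers and of the length slope in the marker levels was not tested.

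**Figure D3:**
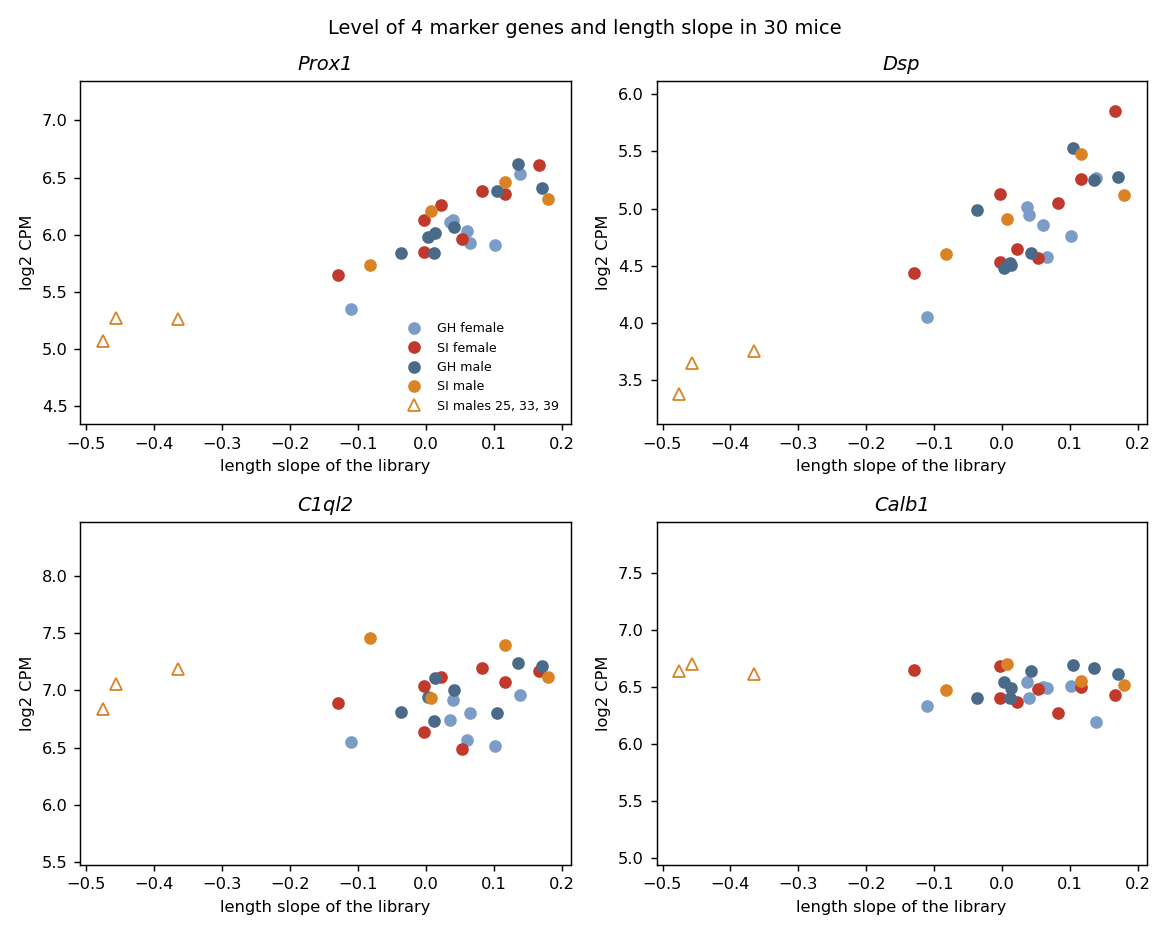
Log2 CPM (vertical axes, all spanning the same range) of Prox1, Dsp, C1ql2 and Calb1 against the length slope of each library (horizontal axes, log2 units per doubling of transcript length) in 30 mice. Prox1 and Dsp climb with the slope among the filled points, and the open triangles of SI males 25, 33 and 39 sit at the low end of both, while Calb1 is flat.

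The difference between the sexes in the effect of isolation was tested in a fit of all 30 mice. No marker and none of 16391 genes passed the threshold in edgeR, a background of 0%, and at an unadjusted p under 0.05 there were 0 of 8 markers and 7.49% of all genes. DESeq2 called none of the 8 markers either, and 8 of 16391 genes in all. The male effect minus the female effect was largest in size for Trpc6, at -0.11 (95% interval -0.33 to 0.12, edgeR adjusted p = 0.85). It was 0.04 for C1ql2 (95% interval -0.27 to 0.34), -0.06 for Prox1 (95% interval -0.28 to 0.16) and -0.09 for Glis3 (95% interval -0.39 to 0.22), and the intervals do not show that the sexes responded alike. Without SI males 25, 33 and 39 the 8 values lay between -0.16 (Trpc6) and 0.04 (Stxbp6), again with 0 of 8 at an unadjusted p under 0.05. Without surrogate variables, in all 30 mice, the order was another. The difference was then -0.53 for Dsp (95% interval -1.29 to 0.24), -0.50 for Glis3 (95% interval -1.14 to 0.14) and -0.45 for Prox1 (95% interval -1.01 to 0.10), against -0.15 for Trpc6, and all 8 values were below 0 with 0 of 8 at an unadjusted p under 0.05.

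Among GH mice the markers leaned lower in females than in males. No marker was called in edgeR, against a background of 6.39% of genes, and 2 of 8 were lower in females at an unadjusted p under 0.05, against 13.1% of genes. C1ql2 was 0.30 lower in females on the log2 scale (Log2FC = -0.30, SE 0.102, edgeR adjusted p = 0.067), with GH females at 90.8 to 124 CPM and GH males at 106 to 151 CPM. It was called without GH male 15 (edgeR adjusted p = 0.0325) or GH male 24 (0.0293) and by DESeq2 (adjusted p = 0.0346). In that order, these fits called 2583 of 16410, 2660 of 16419 and 1942 of 13531 genes. Without surrogate variables 1 of 8 markers, C1ql2, had an unadjusted p under 0.05 (Log2FC = -0.26, edgeR adjusted p = 0.478). Prox1 had a Log2FC of -0.17 (SE 0.0739, edgeR adjusted p = 0.15), which was -0.02 without GH female 78 (edgeR unadjusted p = 0.767), and its unadjusted p was 0.491 without surrogate variables. Markers of other cells moved in the same comparison. All 5 general neuron markers were lower in females (median Log2FC -0.16, 2 called and 5 at an unadjusted p under 0.05), where 3.04% of all genes were called lower. Lower too were 5 of 6 CA1 markers (median -0.14, none called), while all 5 astrocyte markers were higher (median 0.24, 2 called, where 3.35% of all genes were called higher). Without surrogate variables neither Snap25 and Slc17a7, the neuron markers called, nor Gfap and Aldh1l1, the astrocyte markers called, passed (edgeR adjusted p = 0.246 to 0.753). Without SI males 25, 33 and 39 only Aldh1l1 did (0.0205), the others being at 0.135 to 0.184. DESeq2 called each of them. The part of these markers of other cells in the marker differences was not tested. The same GH females serve as controls for the SI females, so both comparisons share their values.

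The markers varied together between mice of a group. Of the 28 pairs, 25 had a positive Pearson correlation over 27 mice after subtraction of group means, and 18 passed a Benjamini-Hochberg threshold of 0.05 in a permutation test within groups (20 by Spearman's rho). The median r was 0.59. How many pairs among all genes vary together as closely was not counted, so this is not shown to be particular to the markers. The strongest pairs were Prox1 with Glis3 (r = 0.87, rho = 0.86), Rfx3 with Glis3 (r = 0.87, rho = 0.86) and Prox1 with Dsp (r = 0.86, rho = 0.89), each with a permutation p of 1e-05 and an adjusted p of 3e-05. Without the 2 mice farthest from the median of the gene named before they were 0.83, 0.84 and 0.83. Calb1 was the exception, with r from -0.34 with C1ql2 to 0.26 with Rfx3 and no pair past the threshold. With all 30 mice 19 pairs passed.

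With the length slope removed as well, an alternative chosen after the data were seen, 10 of 28 pairs passed and the median r was 0.39. The highest pairs were then Trpc6 with Stxbp6 (r = 0.77), Rfx3 with Glis3 (r = 0.72) and Prox1 with Stxbp6 (r = 0.69), and Prox1 with C1ql2 was at 0.58 where it had been at 0.53.

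**Figure D4:**
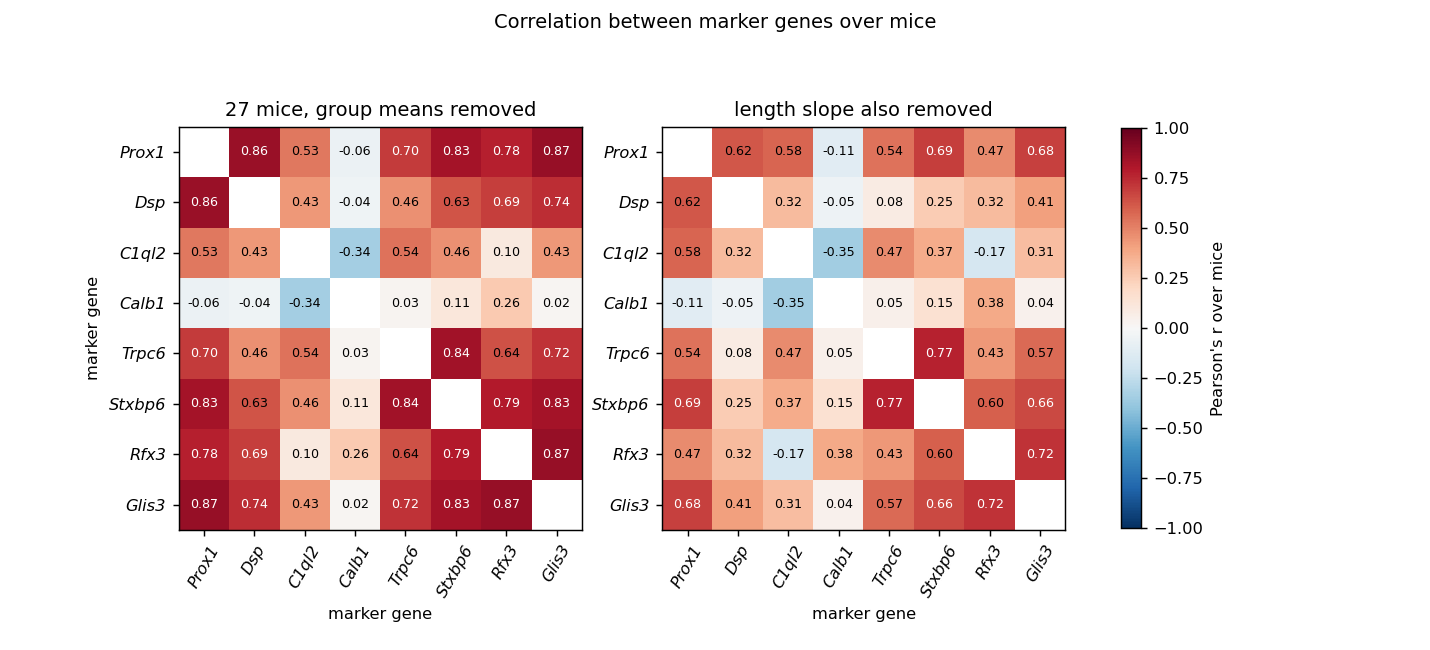
Pearson's r between the 8 markers (both axes) over 27 mice, with group means removed (left) and with the length slope also removed (right), on a colour scale from -1 to 1. The Calb1 row runs from -0.34 to 0.26 on the left and from -0.35 to 0.38 on the right, and the median over all pairs goes from 0.59 on the left to 0.39 on the right, while Prox1 with C1ql2 goes from 0.53 to 0.58.

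The genes most like Prox1 over the 27 mice, among 12992 genes with a mean of at least 100 counts, were Nhsl2 (r = 0.96), Bbx (0.95), Sema5a (0.94), Tanc1 (0.93) and Pcnx (0.93), while the median over all genes was 0.01. Next to the mean of the 8 markers, besides Prox1, Stxbp6 and Glis3 themselves, came Bbx (r = 0.91), Xpr1 (0.91), Vps13c (0.90), Dgkh (0.90) and Samd12 (0.89). Sema5a, a semaphorin, is on the list of other granule cell genes.

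Of 12 other genes known from granule cells, 2 rose in SI females, Plk5 and Lct, where 0.961% of all genes rose, and none fell by the same test, where 2.93% of all genes did. Plk5, a polo-like kinase of the brain, ran from 10.9 through 17.3 to 19.4 CPM in GH females and from 17.5 through 23.5 to 27.3 CPM in SI females. Of the 8 SI females 7 lay above every GH female, and the Log2FC was 0.45 (SE 0.107, edgeR adjusted p = 0.0282). Lct, the lactase gene, ran from 16.3 through 22.9 to 28.3 CPM in GH and from 21.4 through 31.9 to 41.7 CPM in SI females, with 5 of 8 SI females above every GH female (Log2FC = 0.42, SE 0.112, edgeR adjusted p = 0.0459). The median Log2FC of the 12 was 0.04, so most did not follow these 2, and Trhr, the receptor of thyrotropin-releasing hormone, had a Log2FC of -0.40 (edgeR adjusted p = 0.194), the 1 gene of the 12 lower in SI at an unadjusted p under 0.05, against 11% of all genes.

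Neither call held in every setting. Plk5 lost it without SI female 45, 49, 63 or 68 or GH female 48 (adjusted p up to 0.0994), and Lct without any of these or SI female 53 or GH female 46 or 54 (adjusted p up to 0.108), although the Log2FC stayed at 0.40 or more for Plk5 and 0.35 or more for Lct. Without surrogate variables the adjusted p was 0.0872 for Plk5 and 0.19 for Lct, and no gene was called in that fit. With the position digit of each library in their place it was 0.151 and 0.235, and for Lct it was 0.051 without the filter on low counts and 0.174 with limma quality weights. In males 0 of the 12 were called by edgeR, with 1 higher and 1 lower in SI at an unadjusted p under 0.05, against 5.63% of all genes higher and 7.38% lower. Plk5 there had a Log2FC of 0.25 (edgeR adjusted p = 0.369) and Lct of 0.18 (edgeR adjusted p = 0.399). Without SI males 25, 33 and 39, in the fit with 4 surrogate variables over 12 mice, they were at 0.05 and 0.06. Mean CPM was still higher in the other 4 SI males than in the 8 GH males. Plk5 was at 26.9 ± 4.87 (SD) against 22.6 ± 2.91 and Lct at 35.2 ± 3.19 against 30.4 ± 5.57. The interaction of sex and housing was -0.23 and -0.19 (edgeR adjusted p = 0.782 and 0.805). Among GH mice both were lower in females than in males, Plk5 with a Log2FC of -0.53 (edgeR adjusted p = 0.0118) and Lct of -0.48 (edgeR adjusted p = 0.0152), again with the GH females shared by both comparisons. In that comparison neither was called without surrogate variables (adjusted p = 0.138 for Plk5 and 0.426 for Lct), and Lct was not called without SI males 25, 33 and 39 (adjusted p = 0.0724) or without GH male 3 (adjusted p = 0.0516).

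**Figure D5:**
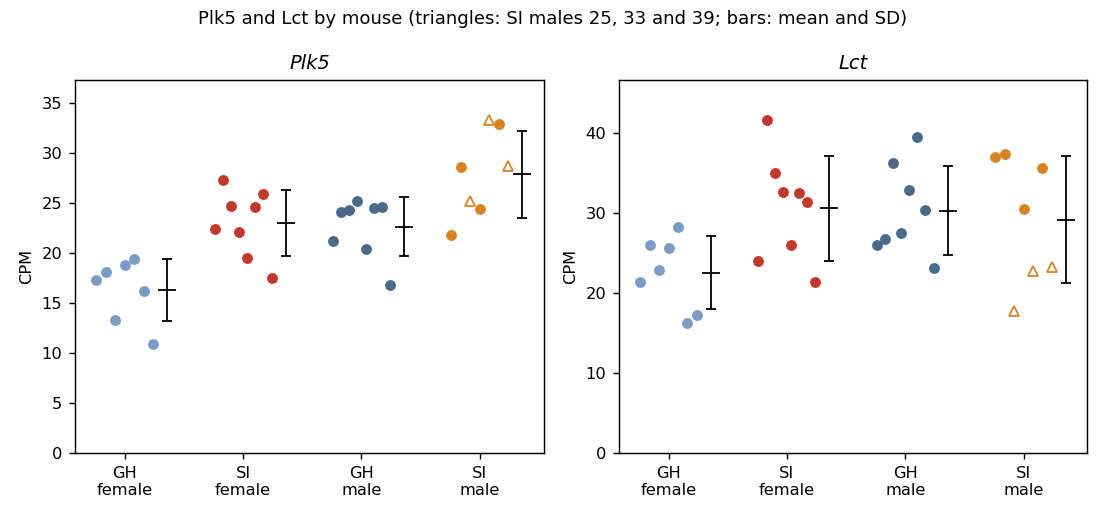
CPM (vertical axes) of Plk5 and Lct in each mouse of the 4 groups (horizontal axes), with the mean and SD as bars and SI males 25, 33 and 39 as open triangles. GH females are the lowest group for both genes, with Plk5 at 16.3 ± 3.13 CPM (SD, n = 7) against 23 ± 3.29 CPM (SD, n = 8) in SI females.

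No gene of the granule cell lineage or of immature neurons passed the housing test in edgeR. Of the 10 genes 9 were tested, and 0 were called in either sex. In females none had an unadjusted p under 0.05, Neurod2 being at 0.17 (adjusted p = 0.256) and Dcx, which marks newborn neurons, at -0.03 (adjusted p = 0.916). In males 1 had, Calb2, the calretinin gene of immature granule cells, mossy cells and interneurons. It was at 27.6 to 43.1 CPM in GH and 34.3 to 80.6 CPM in SI males (Log2FC = 0.50, SE 0.158, edgeR adjusted p = 0.3). Without SI males 25, 33 and 39 the fit, which then held 4 surrogate variables, gave -0.00. Mean CPM was still higher in the other 4 SI males, at 50.5 ± 20.8 (SD) against 37.2 ± 5.29 in GH males. The medians were 43.5 and 38.6 CPM, and the highest SI male, at 80.6 CPM, was among those 4. Among GH mice Neurod1 (Log2FC = -0.25), Neurod2 (-0.31) and Tbr1 (-0.26) were lower in females (edgeR adjusted p = 0.0254 to 0.0497), 3 of 9 against 3.04% of all genes. None of the 3 was called without surrogate variables (edgeR adjusted p = 0.436 to 0.599) or without SI males 25, 33 and 39 (0.0847 to 0.454). These settings left 16 and 150 of all genes called in place of 1047. DESeq2 called all 3, among 1942 of 13531 genes called. Neurod1 also lost its call without GH female 78, GH male 1 or GH male 3, and Neurod2 and Tbr1 kept theirs in 2 and 4 of the 15 fits that each left out 1 GH mouse. The general neuron markers were lower in the same females, as given above.

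Genes whose products work with the markers were counted by family. Of 5 desmosome genes 1 fell in SI females, Pkp4, a plakophilin (Log2FC = -0.17, SE 0.0437, edgeR adjusted p = 0.0388), where 2.93% of all genes fell, and Pkp2, another plakophilin, had a Log2FC of 0.28 (edgeR adjusted p = 0.0739). Of 3 other calcium buffers 1 fell, S100b, an astrocyte gene (Log2FC = -0.26, SE 0.0516, edgeR adjusted p = 0.0122). Pkp4 was called in 7 and S100b in 6 of 11 alternatives. Without surrogate variables the adjusted p was 0.149 for Pkp4 and 0.549 for S100b, and with the position digit it was 0.237 and 0.536. Of the 15 fits that each left out 1 female, Pkp4 kept its call in 6 and S100b in 12, S100b losing it without SI female 45, SI female 68 or GH female 71. Of 6 C1q-like proteins, receptors and partners, 5 other TRPC channels, 6 SNARE genes, 5 other RFX factors and 5 GLI and GLIS factors none was called in SI females, with median Log2FC of 0.02, 0.05, 0.02, 0.02 and -0.24, in that order. At an unadjusted p under 0.05 these held Grik2 and Snap25 upward and Rfx4, Gli2 and Gli3 downward. The GLI and GLIS factors, which are transcription factors related to Glis3, held the lowest median, with Gli2 at -0.26 (edgeR adjusted p = 0.113) and Gli3 at -0.24 (edgeR adjusted p = 0.0869). No gene of these families was called in males by edgeR, where 1 RFX factor, Rfx1, had an unadjusted p under 0.05 upward and Trpc5, Gli2 and Gli3 had it downward, besides Calb2 above. Without SI males 25, 33 and 39, in the fit with 4 surrogate variables over 12 mice, none of these 4 had, with Log2FC of 0.10, -0.11, -0.09 and -0.13. Their mean CPM in the other 4 SI males against GH males was 23.1 against 19.9 for Rfx1, 10.1 against 11.3 for Trpc5, 5.48 against 6.2 for Gli2 and 8.53 against 10.1 for Gli3. Stx1a (-0.17) and S100b (0.19) had an unadjusted p under 0.05 in their place, with no gene of the families called.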

How the data were processed

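The authors trimmed paired-end reads with Trimmomatic 0.39, quantified them with Salmon 1.8.0 and deposited 1 table of whole-number counts for 17477 genes and 30 mice, without normalization. The lowest total of a gene was 100. The annotation is not given in the sources used here, and the submitters' processing notes name the mouse build GRCm39. All columns matched a mouse by name. Symbols matched 94.1% of the genes, and GENCODE vM1 on NCBIM37 gave length and GC content for 91.3%.

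Within each sex, genes passing filterByExpr (minimum count 10, minimum total 15) were normalized by TMM and tested with the quasi-likelihood test of edgeR 4.0.16 in R 4.3.3. Surrogate variables came from svaseq of sva 3.50.0 (20 permutations, seed 1), 3 in females and 2 in males. The interaction and the GH sexes were tested in 1 fit of 30 mice with 4. P-values were adjusted over all genes by Benjamini-Hochberg at 0.05. CPM values are TMM-scaled over 30 mice, and log2 CPM used a prior count of 2. Intervals at 95% use the estimate, its SE and the moderated degrees of freedom of edgeR. Single values were tested by two-sided exact permutation. Correlations used 100000 permutations within groups. DESeq2 1.42.0 with apeglm 1.24.0 and limma 3.58.1 served as alternatives. The fits were tested on simulated data with known changes.

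The markers and gene lists were chosen with earlier results of these data known. All markers are named, and of each list every gene called, with 1 or 2 examples. More genes of a list than that, among them Trhr, Calb2, Pkp2, Stx1a, Grik2, Snap25, Rfx4, Gli2, Gli3, Rfx1 and Trpc5, were named by their unadjusted p after the values were seen. Slc17a7, Syt1, Rbfox3 and Tubb3 were likewise named after their values were seen, and the alternatives for called genes of the lists were added then.

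Depth ranged from 28667655 to 53512172 counts in GH females, 24565563 to 100844898 in SI females, 33433048 to 66575824 in GH males and 18809307 to 58232296 in SI males.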

Additional observations from a re-analysis of the deposited data

Results flagged for a closer look

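In 40 groups of values (each marker, the total count and the length slope in each of the 4 groups) 1 mouse was far from the others by Dixon's criterion. The length slope of GH female 78 was -0.111, and the next lowest GH female was at 0.04, a gap of 0.59 of the group's range against a critical value of 0.568. Chance alone gives about 1 such mouse in 20 groups. This mouse had the lowest level of Prox1 (40.7 CPM), Dsp (16.5 CPM) and Glis3 (6.61 CPM) among GH females.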

How the results depend on the processing

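No marker was called in females under any alternative or without any 1 mouse, and none in males under any of 12 alternatives. Leaving out 1 mouse gave 0 to 2 markers called in males (2 without SI male 27) and 0 to 1 among GH mice (C1ql2, without GH male 15 or 24). In all, 2413 of 15790 genes were called without SI male 27, 2583 of 16410 without GH male 15 and 2660 of 16419 without GH male 24. DESeq2 gave 1 marker among GH mice, where it called 1942 of 13531 genes. With the length slope as a covariate 10 pairs of markers passed in place of 18. In females the Log2FC over 11 alternatives was 0.06 to 0.25 for C1ql2, 0.10 to 0.19 for Trpc6 and 0.10 to 0.17 for Prox1.

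Several values near 0 changed sign. In females Glis3 went to -0.03 without surrogate variables, -0.05 with 1 fewer, -0.02 with all 30 mice, -0.08 with the position digit of the labels as a factor and -0.12 with limma weights, and Rfx3 to -0.00 with 1 fewer, -0.03 with the digit and -0.09 with limma weights, where Dsp was at -0.06 and Calb1 at -0.02. In males, with all 30 mice in 1 fit, Prox1 was at 0.09, Dsp at 0.14, Trpc6 at 0.09, Stxbp6 at 0.08 and Rfx3 at 0.01. Without SI males 25, 33 and 39, Prox1 was at 0.02, Dsp at 0.09, C1ql2 at -0.00, Stxbp6 at 0.07 and Rfx3 at 0.05, and the differences of mean log2 CPM were 0.04 for Prox1, 0.13 for Dsp and 0.07 for Stxbp6. Dsp in males was at 0.13 with 1 surrogate variable more, 0.00 with the size factors of DESeq2 and 0.11 with length and GC trends removed. Stxbp6 was at 0.02, 0.00 and 0.09 in these settings, 0.01 with 10 counts in every mouse and 0.00 with DESeq2. Trpc6 in males was at 0.06 with 1 fewer, 0.03 with 10 counts in every mouse, 0.01 with the trends removed, 0.04 with limma weights and 0.01 without surrogate variables. Leaving out 1 mouse gave ranges in females of -0.00 to 0.09 for Calb1, -0.00 to 0.16 for Stxbp6, -0.05 to 0.11 for Rfx3 and -0.10 to 0.08 for Glis3. In males they were -0.21 to 0.00 for Prox1, -0.17 to 0.15 for Dsp, -0.03 to 0.05 for Calb1, -0.05 to 0.11 for Trpc6, -0.10 to 0.05 for Stxbp6 and -0.35 to 0.01 for Rfx3. The cause of these changes was not tested.

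No paired analysis was possible because the animal numbers differ between all mice. In females 624 genes were called, none without surrogate variables and 1263 by DESeq2, and without SI males 25, 33 and 39 the GH sexes differed in 150 genes in place of 1047.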
